A study of Saccharomyces cerevisiae with 2 samples.

Results

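The widest nucleosome calls in the chromatin maps of 2 budding yeast (Saccharomyces cerevisiae) libraries are described here. A nucleosome call is a stretch of DNA that the authors' software assigned to 1 nucleosome, described by its centre, its width in bp and a signal for its occupancy. Wide calls were selected on their measured width, as the calls on chromosomes 1 to 16 that were 160 to 180 bp wide. There were 5777 of them among 96151 calls, 3199 of 48019 in the wild-type library and 2578 of 48132 in the fun30 deletion library. They are compared with calls whose width lay within 7.5 bp of 117.5 bp, the lowest being 110 bp. These comparison calls surround the most frequent width and numbered 16717 in wild type and 18485 in the mutant. Because width chose the members, their number and width are descriptions. With 1 library per genotype no replicate error exists, no test between the genotypes was made, and a difference between the libraries covers genotype, culture, digestion and library preparation together. The 95% intervals below are exact (Clopper-Pearson) and cover counting error over calls only, and neighbouring calls are not independent of each other.

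Both libraries came from strain BY4741, a haploid laboratory strain, grown in YPD, a rich medium, and fixed with paraformaldehyde. The Wild Type sample carried no labelled mutation, and the other sample, labelled fun30D, lacked FUN30. Per the labels' protocols, crude nuclei were digested with micrococcal nuclease and the DNA of single nucleosomes was isolated from a gel for sequencing. The study asked where Fun30 places nucleosomes and how strongly they are occupied.

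A nucleosome is a length of DNA wrapped around a core of histone proteins, and micrococcal nuclease trims the DNA that the core does not protect. Where a nucleosome sits at the same bases in nearly all cells, the protected fragments share their ends and the nucleosome is called well positioned. Where its place varies from cell to cell, the fragments are spread out and the nucleosome is called fuzzy or poorly positioned. Fun30 is a remodelling enzyme of the Snf2 family, which uses ATP to move histones along DNA or to exchange them, and it is known for roles in silent chromatin and in the processing of DNA breaks.

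Coordinates are those of the deposited files. With the genome build not given in the sources used here, no call was assigned to a gene and no sequence is printed. Widths ran from 80 to 180 bp in both files, so the wide calls reach the upper end of what the lists hold. The upper limit was not a pile-up, with 129 calls at exactly 180 bp in wild type and 127 in the mutant, against 177 and 112 at 160 bp. Neighbouring calls overlapped by at most 20.6% of the narrower call in both libraries. The nearest neighbour of a wide call in its own library was therefore never closer than 105 bp (wild type) or 106 bp (mutant). The occupancy signal had almost the same distribution in both files, with a largest difference of 0.0128% over evenly spaced quantiles, so its overall level cannot differ between the libraries.

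Wide calls were more frequent in wild type. They made up 6.66% of the wild-type calls (6.44 to 6.89%) and 5.36% of the fun30 deletion calls (5.16 to 5.56%), a difference of 1.31 percentage points. The ratio of the numbers was 1.24. Narrow calls showed the same direction, with 12.1% of wild-type and 10.4% of mutant calls from 80 to 89 bp. The comparison calls went the other way, with 34.8% in wild type (34.4 to 35.2%) and 38.4% in the mutant (37.97 to 38.8%). The mutant library thus held fewer calls in both tails of the width distribution and more near its peak.

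**Figure D1:**
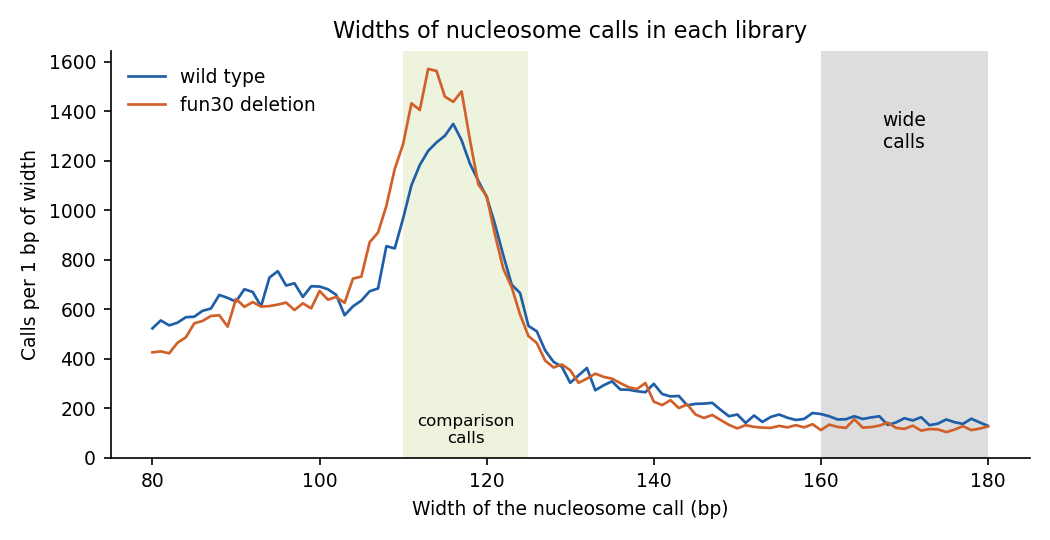
Number of nucleosome calls (y axis) at each width in bp (x axis) in the wild-type and the fun30 deletion library, with the ranges of the wide and the comparison calls shaded. The wild-type line lies above the mutant line over most of the wide range, which holds 3199 and 2578 calls, and below it near the peak.

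The excess of wide calls in wild type was seen on most chromosomes. The share of wide calls was higher in wild type on 15 of the 16 chromosomes. The largest difference was on chromosome 14, where wide calls were 216 of 3223 in wild type (6.70%) and 160 of 3241 in the mutant (4.94%). The exception was chromosome 6, with 61 of 1108 (5.51%) in wild type and 65 of 1102 (5.90%) in the mutant. Within a library the shares ran from 5.51% on chromosome 6 to 7.61% on chromosome 10 in wild type, and from 4.88% on chromosome 4 to 5.96% on chromosome 5 in the mutant.

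Around the lower limit of the range the occupancy was similar on either side, while the displaced share, defined below, was somewhat higher inside. In the 2 bp just below 160 bp, 338 wild-type calls had a median occupancy of 0.158 and 52.7% of their pairs were displaced by 20 bp or more. In the first 2 bp of the range, 345 wild-type calls had a median occupancy of 0.148 and 65.2% were displaced. In the mutant 259 calls just outside had 0.144 and 57.1%, and 246 calls just inside had 0.149 and 60.1%. No step in occupancy marks the limit, and wide calls are the upper part of a continuous range.

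Wide calls were weakly occupied in both libraries. Their median occupancy was 0.153 (quartiles 0.113 and 0.231) in each of the libraries. The comparison calls had medians of 0.299 (0.171 and 0.546) in wild type and 0.289 (0.170 and 0.522) in the mutant. The lowest occupancy class, which holds the weakest of 4 equal classes of all calls, contained 39.0% of the wide calls of wild type and 38.5% of those of the mutant. The highest class contained 9.25% and 8.03%, against 40.4% and 38.9% of the comparison calls. Strong wide calls nevertheless existed, and 955 wild-type and 766 mutant wide calls lay above the median occupancy of their library.

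The most strongly occupied wide calls include some at chromosome ends, where the placement of reads in repeated sequence is uncertain. The strongest in both libraries was the last call of chromosome 14, at 784116 in wild type where its occupancy was 4.77, and at 784115 in the fun30 deletion library, where it was 3.06. In wild type it was followed by the last call of chromosome 13, at 924229 with 1.75, which had no mutant call within 100 bp. The next ones lay more than 20 kb from an end. They were found on chromosome 1 (190702), chromosome 16 (74337) and chromosome 4 (894281), each with an occupancy of 1.53. The nearest mutant call to the chromosome 16 position was 12 bp away, 136 bp wide and had an occupancy of 0.879. In the mutant the call at 400193 of chromosome 10 came next (1.61). It was followed by 253546 of chromosome 2 (1.24), 519274 of chromosome 11 (1.23) and 194036 of chromosome 16 (1.20). At 519274 the wild-type call had the same centre but was 118 bp wide, against 173 bp in the mutant. None of these 4 mutant positions was wide in wild type, where the widths were 118 to 140 bp.

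The neighbours of wide calls were farther from centre to centre. The median distance to a neighbouring centre, over both sides, was 187 bp for wild-type wide calls, 191 bp for mutant ones and 172 bp for comparison calls in both libraries. A wide call takes more room, and from edge to edge the order turned. The median gap between the edges was 43 bp beside wild-type wide calls and 49 bp beside mutant ones, against 56 bp and 57 bp beside comparison calls. An overlap with at least 1 neighbour was found for 49.7% of the wild-type wide calls (47.99 to 51.5%) and 44.7% of the mutant ones. The shares were 34.2% and 30.8% over all calls, and 29.8% and 26.8% of the comparison calls. The distance between the 2 calls that flank a wide call had a median of 424 bp (wild type) and 425 bp (mutant), and was 373 and 372 bp around comparison calls. Wide calls above the median occupancy did not show the larger centre distance, with medians of 168 bp (wild type) and 171 bp (mutant) against 167 and 168 bp for comparison calls.

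Wide calls were less often part of regular arrays. A neighbour from 140 to below 190 bp away on both sides was found for 8.28% (wild type) and 9.12% (mutant) of the wide calls. The comparison calls had 13.5% and 14.8%, and all calls lay between, with 10.8% and 12.3%. A distance of 220 to 450 bp to a neighbour on at least 1 side was found for 44.4% of the wide calls in wild type and 47.4% in the mutant. Over all calls it was found for 37.1% and 35.8%, and among comparison calls for 36.5% and 35.6%. The neighbours themselves had ordinary widths, with a median of 113 bp in both libraries.

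Wide calls were mostly single. Of the wide calls 84.7% in wild type and 87.6% in the mutant had no wide call next to them. The longest runs were 4 wide calls in wild type, at 177202 to 177942 and at 489375 to 490437 on chromosome 7, and 3 in the mutant, where 17 such runs were found. Among the direct neighbours of wide calls 7.98% were wide in wild type (7.32 to 8.67%) and 6.52% in the mutant (5.86 to 7.23%), slightly above the 6.66% and 5.36% over all neighbours. In 578 regions of 20 kb with at least 40 calls in each library, the share of wide calls ran from 0 to 18.3% in wild type, with a median of 6.45%, and from 0 to 15.1% in the mutant, with a median of 5.06%. Across these regions the shares of the libraries correlated with r = 0.20 (Spearman's rho 0.17). Regions share base composition and mappability in both libraries, and each share rests on few wide calls. The highest share in wild type was in the first 20 kb of chromosome 7, with 11 of 60 calls, and the mutant had 1 of 56 there. The highest share in the mutant was at 80001 to 100000 on chromosome 6, with 13 of 86 calls, and wild type had 8 of 93.

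Wide calls were more frequent near chromosome ends, taken as the first and last call of either library. Within 5 kb of an end they were 48 of 392 calls in wild type (12.2%, 9.17 to 15.9%) and 48 of 383 in the mutant (12.5%, 9.39 to 16.3%). Beyond 30 kb they were 6.51% and 5.25%. From 10 to 30 kb the share was 8.32% in wild type (7.24 to 9.50%) and 5.68% in the mutant (4.79 to 6.69%), so that the mutant share was close to that of its chromosome interiors at this distance. Calls within 5 kb of an end also had a low median occupancy, 0.194 in wild type and 0.189 in the mutant, against 0.211 and 0.212 beyond 30 kb. The part of occupancy, and of the placement of repeated reads, in these shares was not tested.

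The shift between the libraries was then measured. A call was paired with a call of the other library when neither had a closer call in the opposite library and at most 73 bp separated the centres, and a pair counted as displaced from 20 bp. Members were chosen by their width in 1 library and the partner was read in the other, but the displacement also contains the centre of the chosen call itself. A partner was found for 2500 of the wild-type wide calls (78.1%) and for 2046 of the mutant ones (79.4%), against 85.0% and 84.8% of all calls and 90.7% and 90.1% of the comparison calls. Of these pairs 66.8% were displaced for wild-type wide calls (64.9 to 68.6%) and 63.5% for mutant ones (61.4 to 65.6%), where 26.6% of all pairs were displaced. The comparison calls had 14.4% in wild type (13.8 to 15.0%) and 16.3% in the mutant (15.7 to 16.8%). The median displacement was 28 and 26 bp for wide calls and 4 and 5 bp for comparison calls. The centres of wide calls therefore recurred less closely in the other library. A displacement between libraries does not measure variation from cell to cell, so whether these nucleosomes were poorly positioned in that sense was not tested. The directions along the chromosome were balanced, with the partner at higher coordinates in 34.3% and at lower coordinates in 32.5% of the wild-type wide pairs.

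The displaced share rose with width on the upper side of the peak and was lowest for the comparison calls. In wild type it was 24.7% from the comparison calls up to 139 bp, and in steps of 10 bp it was then 33.6% from 140 bp, 46.3% from 150 bp, 62.6% from 160 bp and 71.1% from 170 bp. In the mutant the last 2 shares were 59.3% and 67.7%. Narrow calls of 80 to 89 bp were displaced in 38.0% of pairs in wild type and 38.4% in the mutant, so wide calls of similarly low occupancy exceeded them. The median occupancies of these narrow calls were 0.170 and 0.160.

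Weak occupancy accompanied displacement but the wide calls differed from the comparison calls in every class of occupancy. In the lowest class 70.3% of the wild-type wide pairs were displaced (66.8 to 73.6%) and 35.2% of the comparison pairs (32.8 to 37.6%). In the highest class 59.6% of the wide pairs (53.7 to 65.3%) and 5.41% of the comparison pairs (4.88 to 5.98%) were displaced, with median displacements of 23 and 2 bp. The mutant gave 66.3% and 34.4% in the lowest class and 55.4% (48.3 to 62.4%) and 6.31% (5.76 to 6.90%) in the highest. Between the lowest and the highest class the displaced share thus dropped from 35.2 to 5.41% for comparison calls and from 70.3 to 59.6% for wide calls in wild type. Over all pairs it was 43.9 and 10.6% in these classes in wild type, and 43.2 and 10.4% in the mutant. The classes do not make occupancy equal. Among wild-type calls above the median occupancy, the median was 0.296 for wide and 0.440 for comparison calls.

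**Figure D2:**
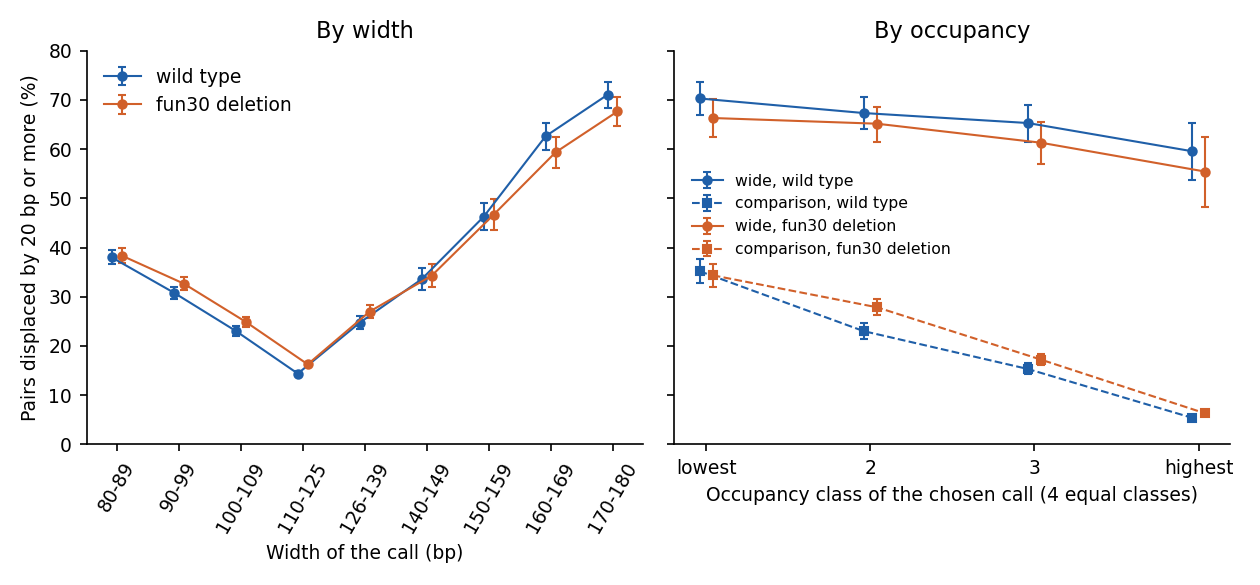
Share of pairs displaced by 20 bp or more (y axis, %) by width of the chosen call in bp (left) and by occupancy class of the chosen call (right), with exact 95% counting intervals as bars. Wide calls stay between 55.4 and 70.3% in all 4 occupancy classes of both libraries, while comparison calls range from 35.2% down to 5.41%.

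The partner of a wide call usually had an ordinary width. The median partner width was 115 bp for wild-type wide calls (quartiles 102 and 138) and 118 bp for mutant ones (100 and 144). Partners no wider than the comparison calls, named ordinary partners below, made up 65.4% and 60.2%. A partner that was itself wide was found for 332 of the 2500 wild-type pairs (13.3%, 11.97 to 14.7%), where 5.02% of all wild-type calls with a partner had a wide one. Seen from the mutant, the same 332 pairs were 16.2% of 2046 (14.7 to 17.9%), against 6.13% of all. For comparison calls the shares were 3.21% and 4.09%. A wide partner was therefore found for a minority of the wide calls, at a higher share than for comparison calls. Comparison calls had a partner of their own width class more often, in 54.4% of the wild-type and 49.5% of the mutant pairs.

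The displacement differed with the width of the partner. Where the partner was also wide, the displacements centred on 0 with a median of 13 bp, and 39.8% of the 332 pairs were displaced (34.5 to 45.2%). Where the partner was an ordinary one, the displacements had a low point around 0 and peaks near 30 bp on either side. Of 1634 such wild-type pairs 86 fell in the bin around 0, against 229 in the bin around -30 bp and 212 in the bin around 30 bp. Among the 1232 such mutant pairs these bins held 6.57% (around 0), 12.9% (around -30 bp) and 12.4% (around 30 bp). Partners of intermediate width lay between the other two, with a displaced share of 50.7% for 534 wild-type pairs and 54.4% for 482 mutant pairs. In wild type 8.61% of these pairs fell in the bin around 0, against 15.0% around -10 bp and 14.8% around 10 bp. The displaced share of the pairs with an ordinary partner was 77.5% for calls chosen in wild type and 73.5% for those of the mutant. Comparison calls with a wide partner also had peaks near 30 bp on either side. In wild type 18.9% of their 486 pairs fell in the bin around -30 bp, 16.9% around 30 bp and 6.58% around 0. Their displaced share was 80.9%, and it was 82.8% for 681 such pairs in the mutant. These pairs are among the wide pairs with an ordinary partner, seen from the other library, so their peaks are no separate observation. The peaks near 30 bp were thus seen in pairs of a wide call and an ordinary one.

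**Figure D3:**
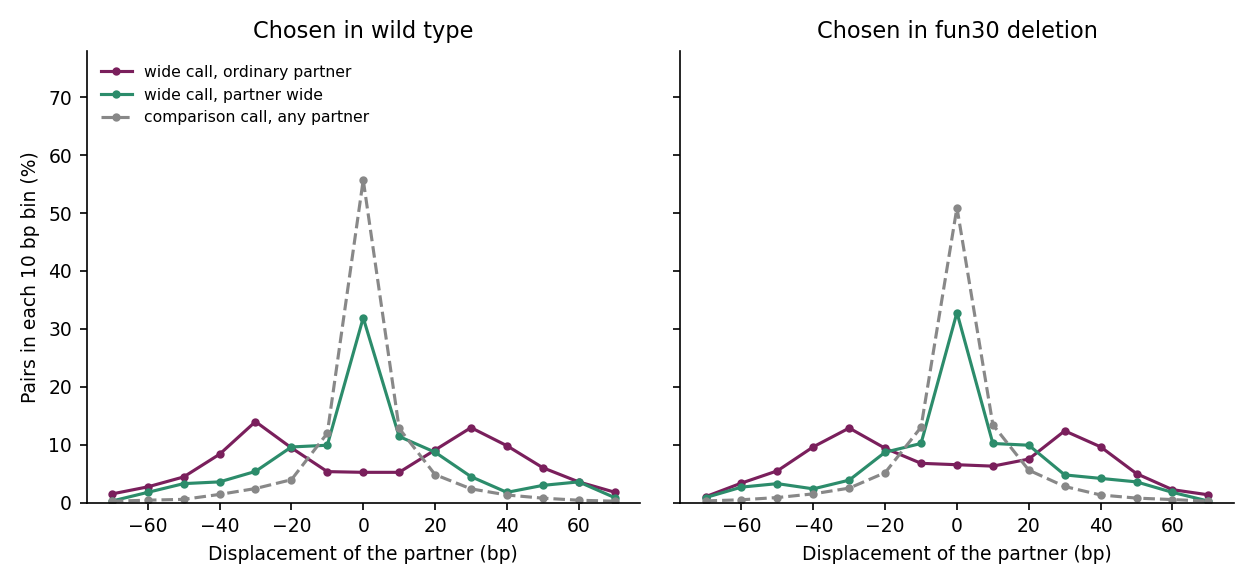
Share of pairs (y axis, %) by signed displacement of the partner from the chosen call in bins of 10 bp (x axis), for calls chosen in wild type (left) and in the fun30 deletion library (right). Wide calls with an ordinary partner, no wider than the comparison calls, have maxima around -30 and 30 bp, with 14.0 and 13.0% of pairs in wild type. Wide calls with a wide partner, and comparison calls over partners of all widths, have a single maximum at 0.

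In the pairs with an ordinary partner, 1 edge of the wide call was close to an edge of the narrower partner. The nearer of the 2 edges differed by a median of 9 bp in the wild-type wide pairs with an ordinary partner, the centre by 31 bp and the farther edge by 62.5 bp. For mutant wide calls the medians were 10, 30.5 and 62 bp. The nearer edge is the smaller of 2 values by definition, and for comparison calls it was 2 bp beside a centre displacement of 4 bp (wild type) and 5 bp (mutant). Over partners of all widths the nearer edge lay within 10 bp in 52.8% of the wild-type wide pairs (50.9 to 54.8%) and 50.8% of the mutant ones, the centre in 18.2 and 20.2%, and both edges in 5.68 and 6.65%. Over all pairs these shares were 72.6% (nearer edge), 53.6% (centre) and 33.5% (both edges). The nearer edge lay within 10 bp in 85.5% of the wild-type and 84.5% of the mutant comparison pairs. An edge within 10 bp was thus less frequent in wide pairs than over all pairs. Neither edge was preferred, with the lower-coordinate edge nearer in 48.96% of the wild-type and 51.8% of the mutant wide pairs. Of the displaced wild-type wide pairs with a neighbour on each side, 58.9% had the partner on the side of the farther neighbour (56.4 to 61.2%), against 53.4% of the displaced comparison pairs (51.2 to 55.5%). In the mutant the shares were 55.3% (52.5 to 57.998%) and 53.2% (51.3 to 55.1%), with overlapping intervals.

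Occupancy within pairs was little different. The median log2 ratio of the other library to the choosing one was -0.01 for wild-type wide calls (quartiles -0.32 and 0.32) and 0.01 for mutant ones (-0.30 and 0.36). Over all pairs the median was 0.0056 seen from wild type and -0.0056 seen from the mutant. With almost the same distribution of occupancy in both files, such small medians cannot be read as a trait of wide pairs. A difference of 2-fold or more was found in 5.32% of the wild-type and 4.69% of the mutant wide pairs, against 4.87% of all pairs and 4.19 and 4.71% of the comparison pairs. The wide shares lay close to that of all pairs, on either side of it.

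The number of calls of the other library within 100 bp of the centre was counted next. In wild type 512 of 3199 wide calls (14.8 to 17.3%) had no mutant call there, 2079 (65.0%) had 1 and 608 (19.0%, 17.7 to 20.4%) had 2 or more. Over all wild-type calls 8.28% had none and 16.3% had 2 or more, and among comparison calls these shares were 5.53 and 13.3%. In the mutant 399 of 2578 wide calls (15.5%) had no wild-type call, 1656 (64.2%) had 1 and 523 (20.3%, 18.8 to 21.9%) had 2 or more. Over all mutant calls 8.68% had none and 16.5% had 2 or more, and among comparison calls 6.36 and 14.3%. A share of 2 or more as high as at wide calls was not particular to them. Narrow calls of 80 to 89 bp had 21.8% in wild type (20.7 to 22.9%) and 22.9% in the mutant (21.8 to 24.1%). More than 2 calls were found at 3 wide calls in each library. In their own library no wide call had a second call within 100 bp, as the limit on overlap requires. Of the wild-type comparison calls 13.5% did, and of the wild-type narrow calls 33.7%.

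The share of wide calls with 2 or more calls of the other library was higher in the upper occupancy classes. In the lowest occupancy class 7.77% of the wild-type wide calls and 10.0% of the comparison calls had 2 or more mutant calls within 100 bp. In the second class these shares were 21.2 and 11.7%. In the third class they were 31.9% (28.3 to 35.6%) and 15.6% (14.5 to 16.7%), and in the highest class 30.4% (25.2 to 35.99%) and 13.8% (12.97 to 14.6%). The mutant gave 8.57 and 7.996% in the lowest class and 37.7% (31.1 to 44.7%) and 15.8% (15.0 to 16.7%) in the highest. Among all wild-type calls the share was 11.8% in the lowest class and 16.97% in the highest. Among all mutant calls it was 11.4 and 17.9%. Wide calls thus lay below all calls in the lowest class of both libraries and above them in the highest. Having no call of the other library was in contrast a trait of weak calls, at 32.7% of the wild-type wide calls in the lowest class and 2.36% in the highest. Over all wild-type calls the shares were 25.015% and 0.20%.

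Where exactly 2 calls were present, they flanked the centre of the wide call. They lay on opposite sides in 589 of 605 cases in wild type (97.4%) and in 505 of 520 in the mutant (97.1%), against 76.2 and 76.1% around comparison calls. Calls of 1 library were never closer than 65 bp, so that 2 calls within the window can share a side only at 65 to 100 bp from each other, and the position on opposite sides follows in part from these limits. Their centres were 109 bp apart at the median in wild type (quartiles 97 and 123) and 108 bp in the mutant, and their median widths were 108 and 109 bp. Of the cases on opposite sides, both calls reached beyond the wide call in 60.1% (wild type) and 61.4% (mutant). At comparison calls these shares were 78.3 and 82.0%. The 2 calls were of similar strength, within 2-fold of each other in 73.7% of the wild-type cases (69.9 to 77.2%) and 70.9% of the mutant cases, against 49.2 and 50.5% around comparison calls. The median occupancies in wild type were 0.206 for the wide call, and 0.235 and 0.136 for the stronger and the weaker mutant call. For comparison calls these medians were 0.289, 0.332 and 0.141, and the lowest occupancy in the lists was 0.0824. The part of occupancy in the share within 2-fold was not tested. Around a comparison call the arrangement was asymmetric, with the nearer of the 2 calls 14 bp and the farther 89 bp from its centre in wild type, while around a wide call these medians were 35 and 76 bp.

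The named examples show this arrangement at single places. On chromosome 1 the wild-type call at 190702 was 178 bp wide with an occupancy of 1.53, and the mutant had calls at 190661 (129 bp, 1.71) and 190788 (117 bp, 1.62). On chromosome 8 the wild-type call at 175723 (173 bp, 1.24) faced mutant calls at 175629 (120 bp, 1.22) and 175761 (90 bp, 1.12). In these 2 examples the mutant calls were nearly equal in strength. Each wide call also had a wild-type neighbour, 124 bp above its centre on chromosome 1 and 112 bp below it on chromosome 8. The mutant calls at 190788 and 175629 lay closer to the centre of that neighbour than to the centre of the wide call.

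On chromosome 10 the wild-type call at 293037 (177 bp, 1.44) faced mutant calls at 292987 (88 bp, 0.653) and 293063 (96 bp, 1.39), whose outer edges lay close to those of the wide call. The reverse case was seen on chromosome 14, where the mutant call at 441691 (172 bp, 0.989) faced wild-type calls at 441603 (84 bp, 0.913) and 441709 (the upper limit of the comparison widths, 0.662). On chromosome 11 the mutant call at 380566 (172 bp, 0.891) faced wild-type calls at 380521 (80 bp, 0.555) and 380598 (97 bp, 1.17). Strong wide calls that faced 2 calls of the other library were thus present in both directions. Not all were splits of the wide call, as a facing call could lie closer to a neighbour of the wide call. Among the named places this was so on chromosomes 1 (190702), 8 (175723), 12 (829686) and 7 (912593).

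**Figure D4:**
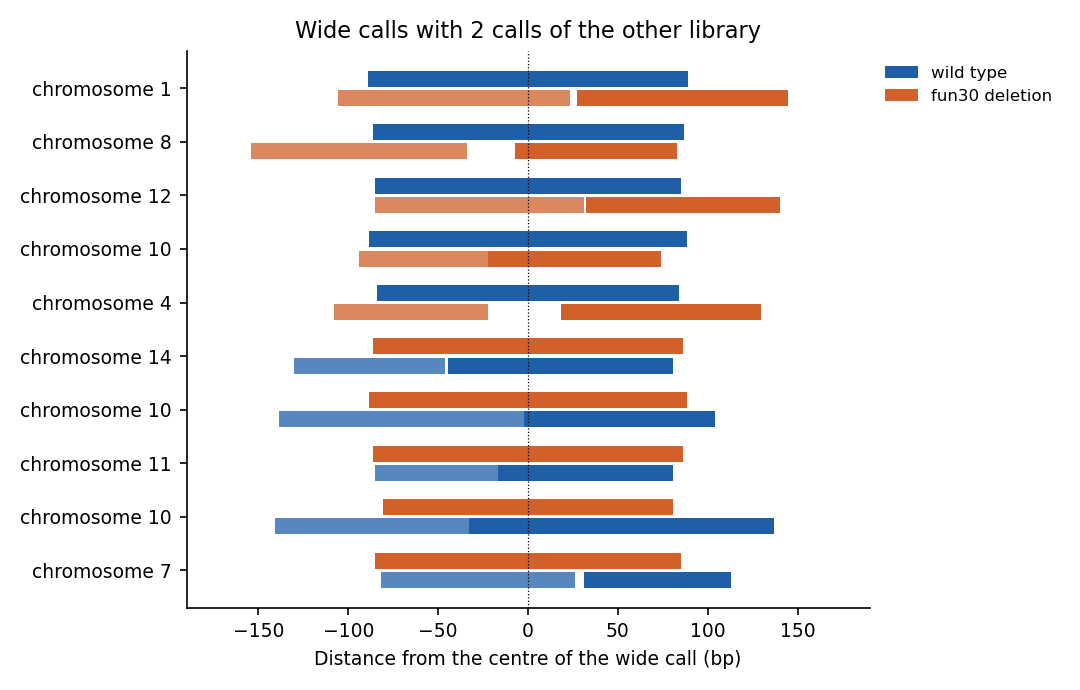
The 10 named wide calls with 2 calls of the other library, drawn to scale as bars from edge to edge against the distance from the centre of the wide call in bp (x axis). In each row the upper bar is the wide call and the lower bars are the 2 calls of the other library, the paler one at lower coordinates. The upper 5 rows are wide calls of wild type and the lower 5 wide calls of the fun30 deletion library.

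A count that does not depend on a fixed window gave the same direction. Where both flanking calls of a wide call had partners, the calls of the other library between those partners were counted. There were 2 or more in 735 of 2375 such places in wild type (30.9%, 29.1 to 32.8%) and in 558 of 1779 in the mutant (31.4%, 29.2 to 33.6%), against 20.1 and 20.6% at comparison calls. The places around wide calls were longer, with medians of 405 and 410 bp between the flanking calls against 368 bp. Among places under 400 bp, 17.5% of those at wild-type wide calls held 2 or more calls (15.3 to 19.7%) and 8.79% of those at comparison calls (8.12 to 9.49%). The median flank distances of these shorter places were 321 and 314 bp.

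The pattern of the other library around wide calls was flat by comparison. At the centre of wild-type wide calls there were 7.44 mutant calls per 10 bp per 100 wide calls, and 8.32 at 30 bp. At comparison calls there were 50.5 at the centre and 2.21 at 30 bp. The first neighbouring peak lay at 140 bp around wild-type wide calls and at 170 bp around comparison calls. Its height over the following trough was 2.03 around wide calls and 3.57 around comparison calls in wild type, and 1.74 and 3.35 for calls chosen in the mutant. The first neighbouring peak was therefore less marked around wide calls in the library that did not choose them.

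**Figure D5:**
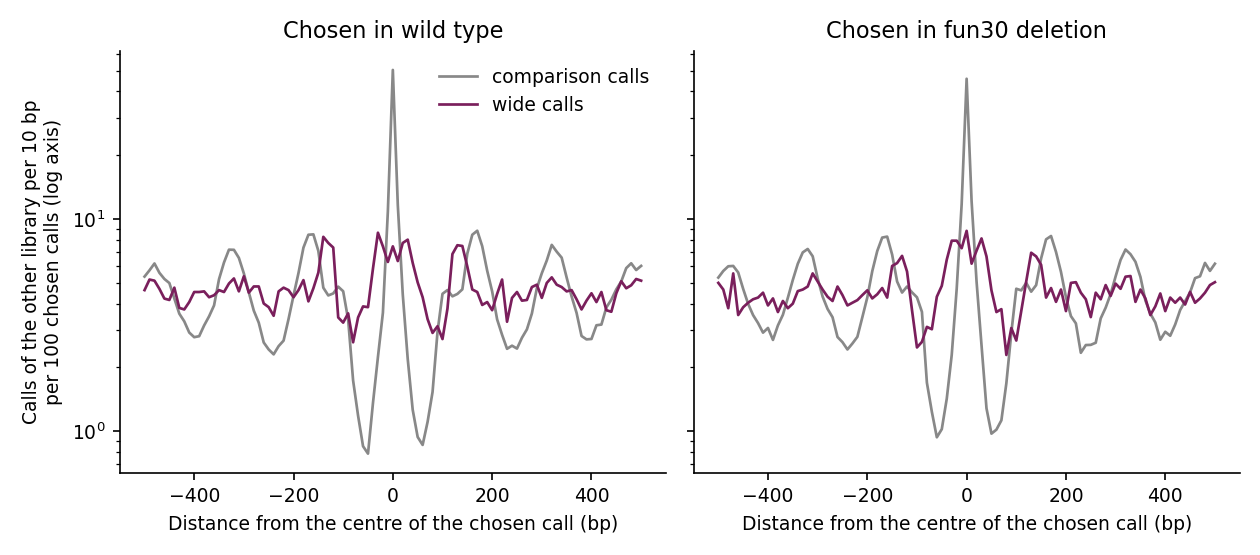
Calls of the other library per 10 bp per 100 chosen calls (y axis, log scale) against the distance from the centre of the chosen call in bp (x axis), for wide and comparison calls chosen in wild type (left) and in the fun30 deletion library (right). The lines of the comparison calls peak at the centre, at 50.5 and 45.9, while those of the wide calls reach 7.44 and 8.81 at the centre and have lower neighbouring peaks.

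The 332 pairs that were wide in both libraries formed 10.4% of the wild-type and 12.9% of the mutant wide calls. They lay on all 16 chromosomes, with 5 to 36 per chromosome. Their median occupancies were 0.185 in wild type and 0.186 in the mutant, against 0.172 and 0.173 for wide calls with a partner of any width, and 115 pairs were above the median of their library in both. A displacement of at most 5 bp was seen in 33.7% of them. A wide call did not always go with a displaced centre.

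The strongest pairs of this kind, named here, had nearly the same centre in both libraries, while 39.8% of the 332 pairs were displaced. Both calls of a pair had to be wide, so their similar widths follow from the selection. After the uncertain pairs at the end of chromosome 14 and at 646998 on chromosome 11, within 20 kb of an end, the strongest was at 380856 on chromosome 11. It was 176 bp wide with an occupancy of 0.977 in wild type, and 172 bp wide with 0.868 in the mutant, 3 bp away. The pair at 601678 on chromosome 4 had the same centre in both, with widths of 173 and 171 bp and occupancies of 0.865 and 0.776. The pair at 642104 on chromosome 14 also had the same centre, with widths of 170 and 168 bp and occupancies of 0.733 and 0.747. The others named, at 262624 on chromosome 12, 131661 on chromosome 1, 527751 on chromosome 8, 1504324 on chromosome 4 and 401979 on chromosome 10, differed by 1 to 4 bp.

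Some named positions lay close together, which was seen after their values were known. On chromosome 10 the positions 290529, 292150 and 293037 lay within 2508 bp, a stretch where each library had 3 wide calls among 17. On chromosome 11 the mutant call at 380566, which faced 2 wild-type calls, was 290 bp from the pair at 380856 that was wide in both libraries.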

How the data were processed

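Per the submitters' processing notes, reads were aligned with Bowtie 0.12.7. Caller, settings and genome build: not given in the sources used here. Deposited lists hold the calls of 1 library each, with chromosome, centre and width in bp, and an occupancy signal (column occ), per the file headers. The deposited signal is not a count and its scaling by the authors is not stated, so the depth of the libraries is unknown. The 3 mutant calls beyond chromosome 16 were left out, none of them wide. Intervals and shares were computed with SciPy 1.17.1, and pairing and window counts were tested on simulated calls. The simulated calls were spaced more widely than most real ones, so calls near a neighbour were not covered by that test. Differences of shares carry a 95% normal interval. Named positions were the 5 strongest wide calls per library, the 10 strongest pairs wide in both, and per library the 5 wide calls with the strongest 2 calls of the other library on opposite sides. Positions within 20 kb of an end were marked uncertain. The members and definitions were chosen with earlier results of these data known. Other limits for width, comparison class, pairing, displacement, window and chromosome ends were tried as alternatives.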

Additional observations from a re-analysis of the deposited data

How the results depend on the processing

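No paired analysis was possible because each genotype has 1 library. Of 92 alternative values 50 lay within the counting interval of the reported value, 40 lay outside it with the same sign and 2 changed sign. Shares of wide calls, among these, cannot change sign. The 2 are the distances to neighbours, which turned from edge to edge (-13 bp in wild type, -8 bp in the mutant) because wide calls take more room. Values below are wild type then mutant, and differences are wide minus comparison calls.

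The share of wide calls (6.66 and 5.36%) became 10.0 and 7.98% from 150 bp, 3.35 and 2.68% from 170 bp, and 3.98 and 3.18% above the median occupancy. The difference in median occupancy (-0.146 and -0.136) was -0.0335 and -0.0327 against calls between the comparison and the wide widths (intermediate calls). The difference in centre distance (15 and 19 bp) was 1 and 3 bp above the median occupancy, 19 bp from 170 bp in wild type, 15 bp from 150 bp in the mutant, and 11 bp against intermediate calls in wild type.

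The difference in displaced shares (52.4 and 47.3 points) was 45.4 and 41.6 from 150 bp, 56.7 and 51.4 from 170 bp, 35.8 and 31.8 against intermediate calls, 21.5 and 19.97 for displacements from 40 bp, and 49.5 and 44.7 with pairs at most 50 bp apart. The difference in shares with 2 or more calls (5.71 and 5.99 points) was 16.9 and 17.1 above the median occupancy and, in an alternative added after seeing the data, 10.8 and 10.7 between paired flanking calls. It was 11.2 in the wider of the windows tried in wild type, 7.84 within 73 bp in the mutant and 4.14 from 150 bp in the mutant. The difference in wide partners (10.1 and 12.1 points) was 11.5 and 13.9 from 150 bp, 5.73 and 6.84 from 170 bp, 13.8 and 16.1 above the median occupancy, and 6.58 and 8.19 against intermediate calls. The share of wide calls near ends exceeded that elsewhere by 2.30 and 1.52 points within 30 kb and by 3.62 and 4.66 within 10 kb. For the moves that do not follow from a changed limit the cause was not tested. The lowest occupancy in the lists, 0.0824, limits what could be seen of weaker nucleosomes.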
